A study of Mus musculus with 6 samples.

Results

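Integrins, chemokine receptors, receptors for lipid and purine signals, semaphorins and plexins decide where a T cell goes and what it holds on to. The 51 genes described here were taken from a table of 4162 genes by their symbols, which begin with Itga, Itgb, Ccr, Cxcr, Gpr, S1pr, Lpar, Ptger, P2rx, P2ry, Adora, Adgr, Sema or Plxn, with Gpr83 left out. No gene with an Icam symbol was among them. The comparison is of UTX TCD mice, which lack the histone H3 lysine 27 demethylase UTX in their T cells, with B6 wild-type (WT) mice, 3 mice of each genotype and 1 library per mouse. Splenic naive CD4+ T cells of all 6 mice were enriched with magnetic beads and then activated for 48 h with anti-CD3 coated on the plate and anti-CD28 in solution, so neither genotype was measured at rest. The sources used here name neither the driver of the T cell deletion nor the deleted exons nor the age of the mice. Values are CPM, read counts scaled to a common total of the listed genes after normalization between libraries. A value that follows "at" with ± is the log2 fold change of UTX TCD over WT cells with its standard error, and one in parentheses after a library left out is the log2 fold change without it. Libraries left out in turn are named WT 1 to WT 3 and UTX 1 to UTX 3, the UTX ones being UTX TCD replicates. A gene is called higher or lower when the Benjamini-Hochberg adjusted p of edgeR's quasi-likelihood test is under 0.05.

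An integrin is a pair of an alpha and a beta chain that binds a ligand on another cell or in the matrix once signals inside the cell switch it to its active shape. Chemokine receptors and most of the other receptors described here cross the membrane several times and signal through G proteins. Chemokine receptors steer cells toward the place where their ligand is made or hold them there, while receptors such as those for prostaglandin E2 and adenosine also set how strongly a T cell responds. In T cells, Ccr7 and S1pr1 serve the circulation of resting cells through lymph nodes, and activation replaces them in part with receptors for inflamed tissue. Semaphorins are membrane-bound or secreted guidance proteins and plexins are their receptors.

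Column totals over the 4162 genes were 8363326 to 9497542 counts in UTX TCD and 8823939 to 10288306 counts in WT libraries. Kdm6a, the gene of UTX, had 188, 207 and 179 CPM in UTX TCD and 286, 281 and 281 CPM in WT replicates 1, 2 and 3, at -0.56 ± 0.09 (edgeR adjusted p = 0.0029). Because the deleted exons are not given, reads from outside them cannot be told apart from intact transcripts. The table holds part of the transcriptome, picked in a way that followed the difference between genotypes: of 4118 genes tested, 20 lay within 0.1 of a log2 fold change of 0. Counts of changed genes therefore describe the listed genes, and each is read against the same count over the table. The first principal component of the expression profiles held 81.6% of the variance and separated the genotypes. UTX TCD replicates 1, 2 and 3 lay at 17.4, 40.7 and 22.8 on it, and WT replicates 1, 2 and 3 at -27.9, -29.6 and -23.3. UTX TCD replicate 2 thus stood apart from its group, on the side away from WT. Of other cell types, no monocyte, dendritic cell, neutrophil, platelet, erythrocyte or stromal marker of the lists used was analysed here. Cd8b1, 1 of 2 CD8 T cell markers, had 31.5, 56.2 and 40.8 CPM in UTX TCD and 11.6, 14.5 and 12.8 CPM in WT libraries. Foxp3 and Ikzf2, 2 of 3 regulatory T cell markers, summed to 56.7 to 128 CPM in UTX TCD and 10.9 to 21.1 CPM in WT libraries, and Ighm and Fcer2a, 2 of 10 B cell markers, to 482 to 775 CPM in UTX TCD and 453 to 548 CPM in WT libraries. The NK cell markers Eomes and Klrd1, 2 of 7, summed to 25.7 to 53.5 CPM in UTX TCD and 23.0 to 59.4 CPM in WT libraries. Within these lists Klrd1 was higher, at 1.40 ± 0.36 (edgeR adjusted p = 0.015), and Fcer2a lower, at -0.89 ± 0.29 (edgeR adjusted p = 0.029), while Eomes and Ighm did not pass. Cd8b1, Foxp3 and Ikzf2 were higher, at 1.72 ± 0.24, 2.35 ± 0.23 and 2.57 ± 0.44 (edgeR adjusted p = 0.0023, 7.6e-04 and 0.0044). Of 5 sex markers, Xist was the 1 in the table, so no marker of male cells could be read. Xist was abundant in every library, with 3896 to 4350 CPM in UTX TCD and 2793 to 2910 CPM in WT libraries. It was higher at 0.55 ± 0.08 (edgeR adjusted p = 0.0029). Of 14 T cell markers 4 were in the table, and they did not move together. Thy1, the Thy-1 surface protein of mouse T cells, had 42.9, 77.6 and 49.9 CPM in UTX TCD cells, against 887, 718 and 819.9 CPM in WT cells, at -3.83 ± 0.23 (edgeR adjusted p = 1.9e-04). Lat was lower at -0.44 ± 0.08 (edgeR adjusted p = 0.0056) and Cd28 higher at 0.83 ± 0.11 (edgeR adjusted p = 0.002), and Lck did not pass, at -0.13 ± 0.07 (edgeR adjusted p = 0.12). The 4 summed to 3616 to 3872 CPM in UTX TCD and 4021 to 4247 CPM in WT libraries, and none was at 0 in any library. The part of these cells in the results below was not tested. In bulk RNA, fewer cells that express a gene and less of its RNA per cell cannot be told apart.

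UTX acts on chromatin, so the stretch before the start site is shown for 4 members. They are the pair of largest rises and the pair of largest falls among members that qualified. A member qualified if it was called, with separate groups and an average log2 CPM of at least 2. Its RefSeq start (GRCm38) also had to lie at or upstream of the annotated gene start. S1pr1 rose more than both rises shown, Cxcr3, Itga3, Itga9 and Gpr34 fell more than both falls shown, and Adora2a fell more than Sema4c. They had no such start and are not shown. The 4 members shown were chosen after their values were seen. Each is the 250 bases before the start, 5′ to 3′ on the gene's strand. Capitals mark CACCC, a core that KLF factors bind, and GGAAA, a core that NFAT factors bind, searched on both strands (GGGTG and TTTCC), with no overlap between them in these windows. Cxcr4 (chr1:128592300-128592549, minus strand) and P2ry10 (chrX:107088242-107088491, plus strand) rose, and Gpr55 (chr1:85961056-85961305, minus strand) and Sema4c (chr1:36558382-36558631, minus strand) fell.
Cxcr4: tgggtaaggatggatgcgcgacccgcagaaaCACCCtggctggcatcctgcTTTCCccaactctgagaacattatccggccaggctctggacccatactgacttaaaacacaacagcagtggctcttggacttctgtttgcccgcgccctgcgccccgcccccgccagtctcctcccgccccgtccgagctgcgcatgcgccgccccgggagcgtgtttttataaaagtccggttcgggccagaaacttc
P2ry10: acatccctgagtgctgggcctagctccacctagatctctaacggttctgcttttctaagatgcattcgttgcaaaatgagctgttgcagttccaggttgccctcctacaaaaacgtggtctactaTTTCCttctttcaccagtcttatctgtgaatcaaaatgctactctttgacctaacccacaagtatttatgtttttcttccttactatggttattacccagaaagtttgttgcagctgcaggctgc
Gpr55: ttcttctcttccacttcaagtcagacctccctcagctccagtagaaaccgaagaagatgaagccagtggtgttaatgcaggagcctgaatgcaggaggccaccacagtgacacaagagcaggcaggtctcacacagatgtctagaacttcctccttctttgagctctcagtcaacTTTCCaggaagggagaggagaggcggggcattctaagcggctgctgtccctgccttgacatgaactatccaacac
Sema4c: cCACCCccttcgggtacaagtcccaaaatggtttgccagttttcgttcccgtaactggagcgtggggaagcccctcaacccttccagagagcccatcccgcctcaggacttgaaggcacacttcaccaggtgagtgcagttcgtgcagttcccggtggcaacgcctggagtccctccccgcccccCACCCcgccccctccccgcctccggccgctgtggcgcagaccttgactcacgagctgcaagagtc

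The windows differ in base composition. Cxcr4 had 61.2% G and C and 19 CpG dinucleotides, and Sema4c 64.4% and 15. P2ry10 had 43.2% and 3, and Gpr55 52% and 3, where the medians of all 32851 RefSeq windows of this length were 52.4% and 6. The KLF core stood at 1 place in Cxcr4 and at 2 places in Sema4c, and is held by 52% of all windows. The NFAT core stood at 1 place each in Cxcr4, P2ry10 and Gpr55, and is held by 55.6% of all windows. A CpG-rich and a CpG-poor start site were thus found in each direction. So few windows, chosen after their values were seen, cannot show whether a core or CpG content goes with direction, and this was not tested.

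Of the 51 genes, 47 passed the low-count filter and were tested. In UTX TCD cells 15 of these were higher and 22 lower, and 10 did not pass the test. Among the members tested 78.7% were called, 31.9% as higher and 46.8% as lower, while over the whole table the share called was 68.1%, 41.1% as higher and 27% as lower. The median log2 fold change was -0.43 for the members tested and -0.15 for all genes tested. A called difference of at least 2-fold was found for 22 members, 46.8% of those tested, against 19.5% of the table. The members lay at a lower level, with a median average log2 CPM of 5.63, against 6.74 for all genes tested. The libraries of the genotypes did not overlap for 37 members (78.7%), against 85.8% of the table. A member could pass the filter through 1 genotype alone, so these shares describe the listed genes and support no statement about the family.

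**Figure D1:**
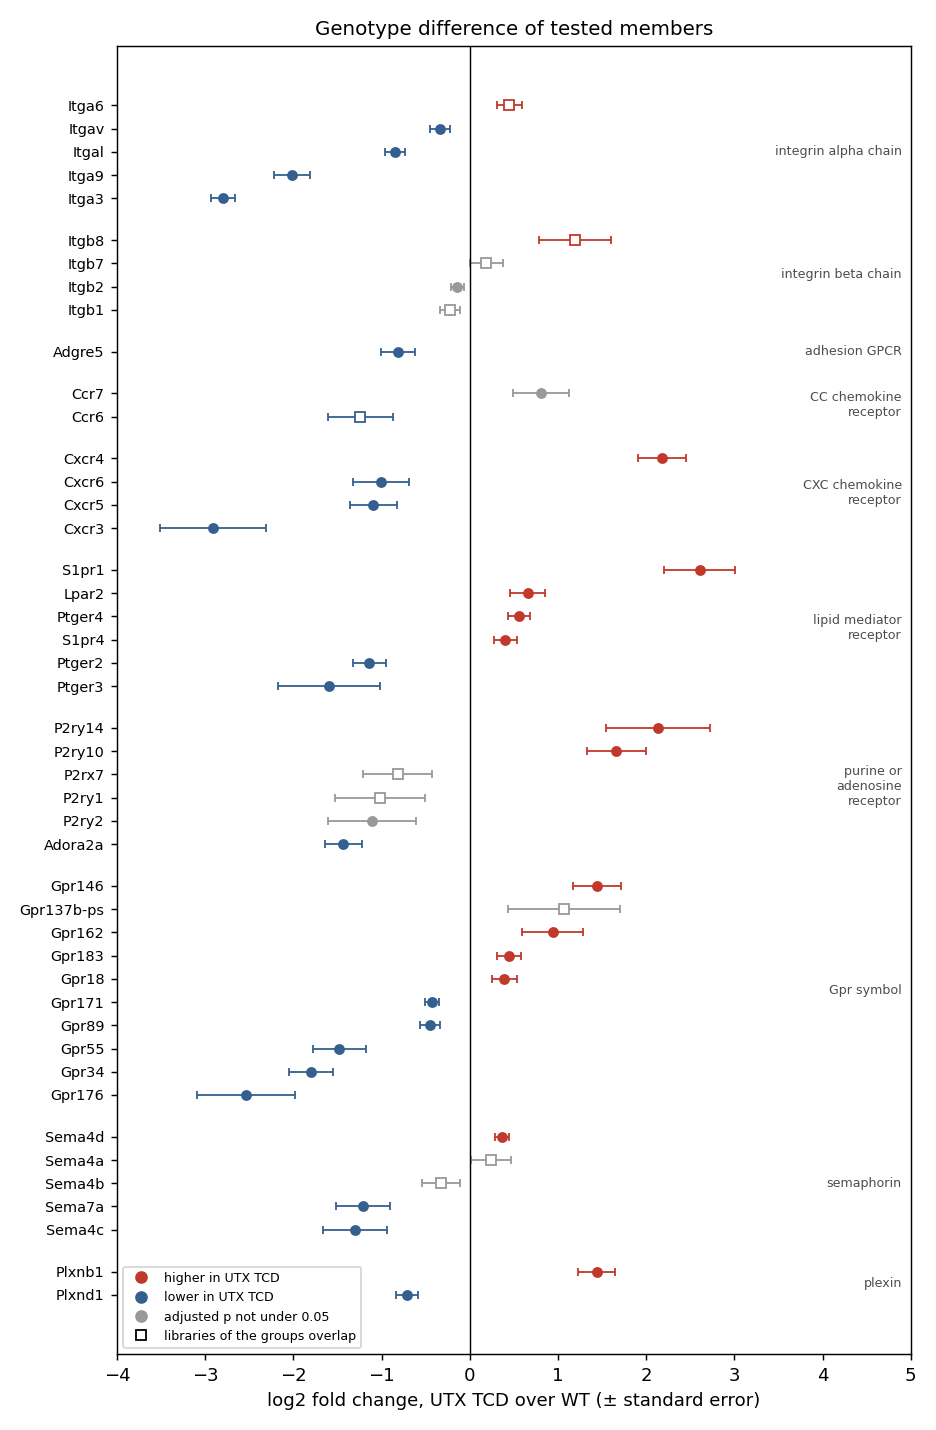
Log2 fold change (UTX TCD over WT) with its standard error for 45 tested members, grouped by family. Red marks the 15 genes called higher, blue 20 called lower and grey the 10 that did not pass, open squares mark overlapping libraries, and the extremes are S1pr1 at 2.61 and Cxcr3 at -2.91.

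Single libraries mattered for these counts. UTX TCD replicate 2 was the highest of the 6 libraries for 27.7% of the members tested and 32.8% of all genes, and the lowest for 23.4% of the members and 38.2% of all genes. It was highest for 11 of the 15 members called higher and lowest for 10 of the 22 called lower. The same shares among all genes called were not counted. Without UTX TCD replicate 2, 13 members were higher and 23 lower. Without WT replicate 1 the counts were 7 higher and 15 lower, and without WT replicate 2 they were 6 higher and 15 lower. These were 43.1% and 41.2% of the members then tested, down from 78.7%. Over the whole table the share called also fell, from 68.1% to 29.3% and 26.1%. The calls of 21 members held whichever library was left out. Of these, 16 also held when all 21951 annotated protein-coding genes were counted as tests and in every other alternative run. They were S1pr1, Cxcr4, P2ry10, Gpr146 and Plxnb1 among the higher members, and Cxcr3, Itga3, Gpr176, Itga9, Gpr34, Gpr55, Adora2a, Ptger2, Itgal, Plxnd1 and Gpr171 among the lower.

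Among the integrin alpha chains 4 of 5 were lower in UTX TCD cells, 80% against 27% of the table. The laminin receptor chain Itga6 was higher, 20% against 41.1%. Itga3, the other laminin receptor chain of the set, had 21, 22.5 and 24.5 CPM in UTX TCD replicates 1, 2 and 3, against 139, 184 and 151 CPM in WT replicates 1, 2 and 3. All 3 UTX TCD libraries lay close together and far under the lowest WT library, at -2.80 ± 0.14 (edgeR adjusted p = 1.7e-04). Itga9, which pairs with Itgb1 and binds tenascin and osteopontin, had 5.66, 4.65 and 5.21 CPM in UTX TCD cells, against 19.7, 20.4 and 22.7 CPM in WT cells. The genotypes were again well apart, at -2.01 ± 0.20 (edgeR adjusted p = 7.6e-04). Itga3 lies on chromosome 11, 95044474 to 95076801, and Itga9 on chromosome 9, 118606690 to 118901003 (GRCm38).

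Itgal encodes the alpha chain of LFA-1, the integrin that holds a T cell to Icam1 on antigen-presenting cells and vessel walls. It had 1374, 1052 and 1259.9 CPM in UTX TCD cells, against 2302, 2253 and 2089 CPM in WT cells, with the highest UTX TCD library far under the lowest WT library, at -0.85 ± 0.11 (edgeR adjusted p = 0.002). It lies on chromosome 7, 127296260 to 127335138 (GRCm38). Its partner chain Itgb2 had 750.3, 778 and 754 CPM in UTX TCD cells, against 849, 804 and 864 CPM in WT cells. Although the genotypes did not overlap for Itgb2, its log2 fold change of -0.14 ± 0.07 did not pass (edgeR adjusted p = 0.11). The ratio of Itgal to Itgb2 counts within a library, which no scaling between libraries can change, was 1.83, 1.35 and 1.67 in UTX TCD and 2.71, 2.80 and 2.42 in WT replicates 1, 2 and 3. This pair was chosen after its values were seen, and 3 libraries against 3 allow no exact permutation p under 0.10. Per kilobase of annotated exon, Itgal averaged 187 CPM in UTX TCD and 337 CPM in WT cells, Itgb2 249 CPM in UTX TCD and 275 CPM in WT cells, and Itgb1 213 CPM in UTX TCD and 248 CPM in WT cells. By length, Itgal was thus the most abundant of the 9 integrin chains in WT cells and stood under Itgb2 in UTX TCD cells, with no overlap between the libraries of Itgal and Itgb2 in either genotype.

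Of the remaining chains, Itgav, an alpha chain that binds matrix and latent TGF-beta with several beta chains, had 133, 151 and 113 CPM in UTX TCD cells, against 165, 174 and 164 CPM in WT cells, at -0.34 ± 0.11 (edgeR adjusted p = 0.032). Itga6 had 184, 225 and 255 CPM in UTX TCD cells, against 149.8, 152 and 187 CPM in WT cells, and although it was called higher at 0.44 ± 0.14 (edgeR adjusted p = 0.028), UTX TCD replicate 1 lay under WT replicate 3. Itgb1, the shared beta chain of most matrix integrins, lay at 769 to 1012 CPM in UTX TCD and 949 to 1068 CPM in WT cells and did not pass, at -0.22 ± 0.12 (edgeR adjusted p = 0.11). Itgb7, the beta chain of gut-homing integrins, lay at 210.4 to 348 CPM in UTX TCD and 225 to 291 CPM in WT cells and did not pass either, at 0.19 ± 0.19 (edgeR adjusted p = 0.35). Libraries of the genotypes overlapped for both. Itgb8, which pairs with Itgav and releases active TGF-beta, was called higher at 1.20 ± 0.41 (edgeR adjusted p = 0.034) from low levels, 9.40, 13.6 and 4.69 CPM in UTX TCD cells, against 4.95, 3.69 and 3.41 CPM in WT cells. Its groups overlapped, since UTX TCD replicate 3 lay under WT replicate 1. The regulatory T cell genes Foxp3 and Ikzf2 summed to 92.7, 128 and 56.7 CPM in UTX TCD replicates 1, 2 and 3, the same order of libraries as for Itgb8, and their part in its value was not tested.

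Adgre5 encodes CD97, an adhesion receptor of leukocytes that is built like a G protein-coupled receptor. It had 88.3, 130.3 and 87.4 CPM in UTX TCD cells, against 161, 157 and 219 CPM in WT cells, and all UTX TCD libraries were lower, at -0.81 ± 0.19 (edgeR adjusted p = 0.012). Ddx39 on the opposite strand covers 23.8% of its annotated exon bases, and the strand setting of the counting is not given. The calls of Itga3, Itga9, Itgal and Adgre5 held without any 1 library. That of Itgav was lost without WT 1 (-0.36), WT 2 (-0.32), WT 3 (-0.36), UTX 1 (-0.34) or UTX 3 (-0.24), and that of Itga6 without WT 1 (0.39), WT 2 (0.39) or UTX 3 (0.33). Itgb8 was not called without WT 1 (1.37), WT 2 (1.13), WT 3 (1.09), UTX 1 (1.19) or UTX 2 (0.79). Itgb1 was called lower and Itgb7 higher without UTX 1 (-0.34 and 0.37), and Itgb2 lower without UTX 2 (-0.17). Itgav was not called with RLE (-0.30) or upper-quartile (-0.26) scaling or DESeq2 (-0.30), and Itgb8 not with limma-voom (1.07), while gap-centred scaling called Itgb1 (-0.30) and Itgb2 (-0.22) lower.

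**Figure D2:**
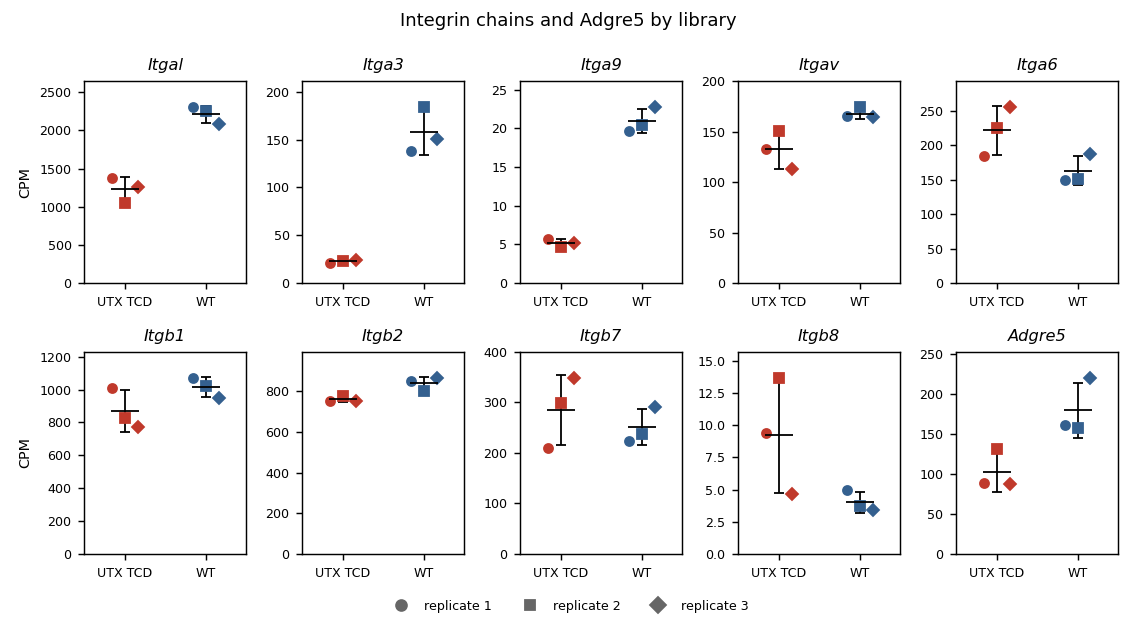
CPM (linear axes from 0) of 9 integrin chains and Adgre5 in each library, with UTX TCD in red on the left and WT in blue on the right, symbols for the replicates and bars for the mean ± SD of 3 libraries. The genotypes are apart for Itga3, Itga9, Itgal, Itgav, Itgb2 and Adgre5, and overlap for Itga6, Itgb1, Itgb7 and Itgb8.

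Of 42 genes in the list of integrin activation and linkage to actin, 17 were tested, with a median log2 fold change of -0.15. Of these, 7 were higher and 6 lower, or 41.2% and 35.3%, against 41.1% and 27% of the table. Rasgrp2, an exchange factor that turns on Rap1 and with it integrins, was higher at 2.82 ± 0.30 (edgeR adjusted p = 9.7e-04), with 34.7, 62.9 and 55.4 CPM in UTX TCD cells, against 5.84, 6.07 and 9.76 CPM in WT cells. Cytip, which holds the integrin activator cytohesin away from LFA-1, was higher at 1.34 ± 0.23 (edgeR adjusted p = 0.0041), with 1220.5, 2109.8 and 1144 CPM in UTX TCD cells, against 639.6, 562 and 564 CPM in WT cells. The docking protein Nedd9 was lower at -0.55 ± 0.10 (edgeR adjusted p = 0.0048). The counts were 3 higher and 3 lower without WT 1 or WT 2, and 3 lower members without WT 3. In the list of integrin ligands and other adhesion and homing molecules 8 of 13 were higher and 4 lower (median log2 fold change 0.61, 29 genes in the list). These were 61.5% and 30.8% of those tested, against 41.1% and 27% of the table. Pecam1, an adhesion molecule of leukocytes and vessel walls that stood for endothelial cells among the marker lists, was higher at 1.29 ± 0.21 (edgeR adjusted p = 0.0036), and the fucosyltransferase gene Fut7, whose product completes selectin ligands, was lower at -1.79 ± 0.22 (edgeR adjusted p = 0.0015), with 4.47 ± 0.538 CPM in UTX TCD and 15.5 ± 0.939 CPM in WT cells (SD, n = 3 each). Higher members of this list were 5 without WT 2 or WT 3, and lower members 2 without WT 2.

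Of the 7 chemokine receptors 5 were lower in UTX TCD cells, 71.4% against 27% of the table. Cxcr4 was the 1 called higher, 14.3% against 41.1%. Cxcr4, the receptor for Cxcl12 that holds cells in bone marrow and lymphoid tissue, had 23.5, 45.4 and 29.7 CPM in UTX TCD replicates 1, 2 and 3, against 7.33, 6.94 and 7.49 CPM in WT replicates 1, 2 and 3. WT libraries were almost level, and the lowest UTX TCD library was more than 2-fold above the highest of them, at 2.18 ± 0.27 (edgeR adjusted p = 0.0017) or 4.53-fold. Cxcr3, the receptor of Th1 cells for the interferon-induced chemokines Cxcl9 and Cxcl10, went the other way. It had 1.21, 0.317 and 2.71 CPM in UTX TCD cells, against 7.53, 10.4 and 14.4 CPM in WT cells, or 10, 3 and 26 reads in UTX TCD cells, against 76, 96 and 127 reads in WT cells. Among UTX TCD libraries replicate 2 was lowest, and the log2 fold change was -2.91 ± 0.60 (edgeR adjusted p = 0.0076). Cxcr3 had 0.0513, 0.00698 and 0.0912 reads per read of Cxcr4 in UTX TCD and 1.03, 1.5 and 1.92 in WT replicates 1, 2 and 3, a pair chosen after its values were seen. Cxcr4 lies on chromosome 1, 128588199 to 128592293, and Cxcr3 on chromosome X, 101731535 to 101734269 (GRCm38).

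Cxcr5, which leads T follicular helper cells into B cell follicles, had 5.18, 3.59 and 3.44 CPM in UTX TCD cells, against 9.11, 9.22 and 7.72 CPM in WT cells. All UTX TCD libraries were lower, at -1.10 ± 0.27 (edgeR adjusted p = 0.013). Cxcr6, the receptor for Cxcl16 on effector and tissue-resident T cells, had 3.62, 2.43 and 2.40 CPM in UTX TCD cells, against 4.36, 7.05 and 5.56 CPM in WT cells, at -1.01 ± 0.32 (edgeR adjusted p = 0.028). The genotypes did not overlap, but the gap between UTX TCD replicate 1 and WT replicate 1 was small. Ccr6, the receptor for Ccl20 on Th17 and regulatory T cells, had 15.4, 23.8 and 11.1 CPM in UTX TCD cells, against 51.5, 44.9 and 22.6 CPM in WT cells, at -1.24 ± 0.37 (edgeR adjusted p = 0.023). Its groups overlapped, since UTX TCD replicate 2 was above WT replicate 3.

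Ccr7, which guides naive T cells to lymph node T zones, was by length the most abundant of the 51 genes in both genotypes, at 719 CPM per kilobase of exon in UTX TCD and 412 in WT cells. It had 984, 2281 and 999 CPM in UTX TCD cells, against 800.3, 714 and 931 CPM in WT cells. UTX TCD replicate 2 was more than 2-fold above every other library, and the difference did not pass, at 0.80 ± 0.32 (edgeR adjusted p = 0.053). It was called higher without UTX 1 (1.02) or UTX 3 (1.0), and was 0.28 without UTX 2. The calls of Cxcr3 and Cxcr4 held without any 1 library, and Cxcr3 was -3.84 without UTX 3. Cxcr5 was not called without WT 1 (-1.06) or WT 2 (-1.05), Ccr6 not without WT 1 (-1.01), WT 2 (-1.15) or UTX 3 (-1.02), and Cxcr6 not without WT 1 (-1.17), WT 2 (-0.82), WT 3 (-1.02) or UTX 3 (-0.91).

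In the list of G protein and chemokine receptor signalling, 14 of 27 genes tested were higher and 10 lower (median log2 fold change 0.24, 59 genes in the list). These were 51.9% and 37% of those tested, against 41.1% and 27% of the table. Plcb4, a phospholipase C that G proteins activate, had 26.4, 27.6 and 26.6 CPM in UTX TCD cells, against 9.11, 9.98 and 7.61 CPM in WT cells and was higher at 1.59 ± 0.18 (edgeR adjusted p = 0.0012). Of the G protein subunits, Gng2 was lower at -1.03 ± 0.13 and Gnb4 higher at 1.22 ± 0.16 (edgeR adjusted p = 0.0017 and 0.002). The higher members were 9 without WT 1 and 8 without WT 2. Of 12 CXC, XC and CX3C chemokines in a list, Xcl1 was the 1 tested and did not pass, at -1.10 ± 0.65 (edgeR adjusted p = 0.14). Cxcl13, which encodes the ligand of Cxcr5, was under the low-count filter, with 0, 0 and 0 reads in UTX TCD cells, against 11, 22 and 26 reads in WT cells. It was called lower with no low-count filter and without UTX 1, UTX 2, UTX 3 or WT 1, when it passed the filter. Of 24 other chemoattractant receptors in a list, the histamine receptor gene Hrh2 was the 1 tested and was higher at 1.20 ± 0.30 (edgeR adjusted p = 0.015), though not without WT 1 (1.19) or WT 2 (1.12).

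Receptors for lipid signals went both ways, with 4 of 6 tested members higher and 2 lower (66.7% and 33.3%, against 41.1% and 27% of the table). S1pr1, the receptor through which T cells follow sphingosine 1-phosphate out of lymphoid organs, showed the largest rise of all 51 genes. It had 31.6, 81.3 and 87.7 CPM in UTX TCD replicates 1, 2 and 3, against 8.82, 9.65 and 14.5 CPM in WT replicates 1, 2 and 3. UTX TCD replicate 1 was well under the other libraries of its genotype and still above every WT library, at 2.61 ± 0.40 (edgeR adjusted p = 0.0031) or 6.09-fold. S1pr4, a lymphocyte receptor for the same lipid, had 80.7, 95.7 and 104 CPM in UTX TCD cells, against 63.3, 70.2 and 78.9 CPM in WT cells. The genotypes nearly touched, at 0.40 ± 0.13 (edgeR adjusted p = 0.03). Lpar2, a receptor for lysophosphatidic acid, had 18.1, 25.8 and 25.7 CPM in UTX TCD cells, against 15.4, 14.0 and 14.9 CPM in WT cells, at 0.65 ± 0.20 (edgeR adjusted p = 0.024). S1pr1 lies on chromosome 3, 115710433 to 115715072 (GRCm38).

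The prostaglandin E2 receptors diverged. Ptger2 and Ptger4 both raise cyclic AMP and dampen T cell activation. Ptger2 had 34.8, 27.2 and 43.0 CPM in UTX TCD cells, against 73.1, 87.5 and 70.7 CPM in WT cells, with every UTX TCD library lower, at -1.14 ± 0.18 (edgeR adjusted p = 0.0036). Ptger4 had 415, 445 and 327 CPM in UTX TCD cells, against 287, 269 and 250.2 CPM in WT cells, with every UTX TCD library higher, at 0.56 ± 0.13 (edgeR adjusted p = 0.01). Within a library, Ptger2 had 0.0840, 0.0610 and 0.131 reads per read of Ptger4 in UTX TCD and 0.254, 0.326 and 0.283 in WT replicates 1, 2 and 3, and the genotypes did not overlap in this ratio, which was chosen after its values were seen. A pseudogene on the opposite strand, Gm15937, covers 15.3% of the exon bases of Ptger4. Ptger3, which lowers cyclic AMP, was near the limit of detection, with 3, 2 and 8 reads in UTX TCD cells, against 13, 18 and 10 reads in WT cells at -1.60 ± 0.57 (edgeR adjusted p = 0.04).

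The calls of S1pr1, Ptger2 and Ptger4 held without any 1 library. S1pr4 was not called without WT 1 (0.32), WT 2 (0.39) or UTX 3 (0.32), and Lpar2 not without WT 1 (0.68), WT 2 (0.61), WT 3 (0.66) or UTX 3 (0.57). Ptger3 was not called without WT 1 (-1.68), WT 2 (-1.34), WT 3 (-1.75), UTX 1 (-1.45) or UTX 2 (-1.25), and was -2.31 without UTX 3. It was also not called with upper-quartile scaling (-1.52), DESeq2 (-1.58) or the replicate block. The receptors S1pr3 and Lpar3 were under the low-count filter. S1pr3 had 27, 66 and 6 reads in UTX TCD cells, against 7, 8 and 3 reads in WT cells, and Lpar3 18, 8 and 27 reads in UTX TCD cells, against 8, 2 and 7 reads in WT cells. UTX TCD replicate 3 was within the WT range for S1pr3, and the libraries of Lpar3 did not overlap in CPM. With no low-count filter both were called higher, at 2.48 ± 0.84 for S1pr3 (edgeR adjusted p = 0.033) and 1.66 ± 0.64 for Lpar3 (edgeR adjusted p = 0.049). In the alternatives that tested them, S1pr3 was not called without WT 1 (2.54), WT 2 (2.75) or WT 3 (2.19), nor Lpar3 without WT 1 (1.92), WT 2 (1.27) or WT 3 (1.89).

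Of the genes that make, break down or answer these lipids, 4 of 9 tested were higher and 3 lower (median log2 fold change 0.25, 28 genes in the list). The shares were 44.4% and 33.3%, against 41.1% and 27% of the table. Klf2, a transcription factor of resting T cells that is known to drive S1pr1, had 116, 188 and 209 CPM in UTX TCD cells, against 31.9, 33.1 and 49.8 CPM in WT cells. It was higher in all UTX TCD libraries, lowest in replicate 1, as was S1pr1, and its log2 fold change was 2.16 ± 0.26 (edgeR adjusted p = 0.0015). Ptgir, the prostacyclin receptor gene, and Sgpp1, a phosphatase for sphingosine 1-phosphate, were higher at 1.41 ± 0.27 (edgeR adjusted p = 0.0064) and 0.50 ± 0.10 (edgeR adjusted p = 0.0077). The lower members were 1 without WT 1, WT 2 or UTX 3.

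**Figure D3:**
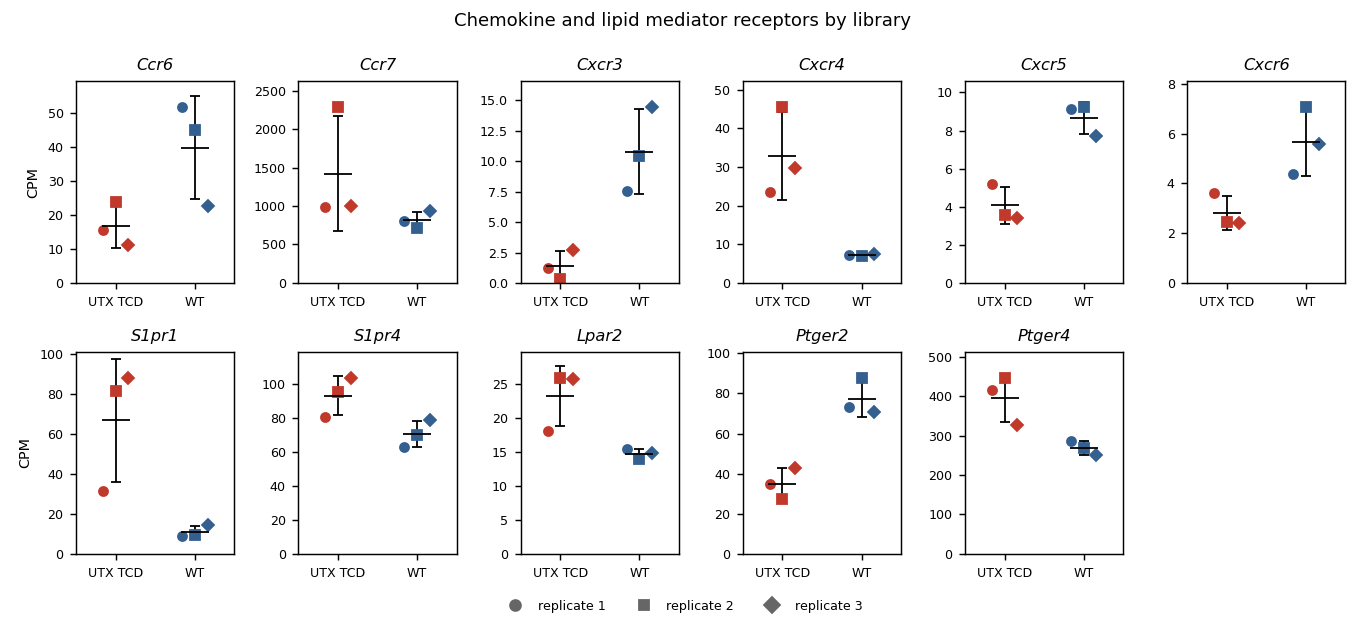
CPM (linear axes from 0) of 6 chemokine receptors and 5 lipid mediator receptors in each library, with UTX TCD in red on the left and WT in blue on the right, symbols for the replicates and bars for the mean ± SD of 3 libraries. Cxcr4 and S1pr1 lie higher and Cxcr3 and Ptger2 lower in every UTX TCD library, and Ccr6 overlaps.

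Among receptors for purines and adenosine 2 of 6 were higher and 1 was lower in UTX TCD cells. The shares were 33.3% and 16.7%, against 41.1% and 27% of the table. Adora2a, the adenosine receptor that restrains activated T cells through cyclic AMP, had 20.5, 35.6 and 23.8 CPM in UTX TCD replicates 1, 2 and 3, against 64.8, 74.4 and 77.3 CPM in WT replicates 1, 2 and 3. Every UTX TCD library was lower, at -1.44 ± 0.21 (edgeR adjusted p = 0.0027), on chromosome 10, 75316877 to 75334784 (GRCm38). P2ry10, whose product senses lysophosphatidylserine despite its purine symbol, had 291, 680.2 and 272 CPM in UTX TCD replicates 1, 2 and 3, against 134, 122 and 137 CPM in WT replicates 1, 2 and 3. UTX TCD replicate 2 was more than 2-fold above the other libraries, and the other UTX TCD libraries were also above every WT library, at 1.66 ± 0.34 (edgeR adjusted p = 0.0073). Without UTX 2 it was 1.10. P2ry10 lies on chromosome X, 107088492 to 107104974.

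P2ry14, a receptor for UDP-glucose, was called higher from few reads, 15, 54 and 31 reads in UTX TCD cells, against 13, 7 and 3 reads in WT cells, at 2.14 ± 0.59 (edgeR adjusted p = 0.019). It was not called without WT 2 (2.09) or WT 3 (1.79). P2ry1, P2ry2 and P2rx7 encode receptors for ADP, for ATP and UTP, and for ATP. They were at -1.02 ± 0.51, -1.11 ± 0.50 and -0.82 ± 0.39 and did not pass (edgeR adjusted p = 0.098, 0.072 and 0.086). P2ry2 lay at 0.740 to 3.37 CPM in UTX TCD and 4.12 to 5.65 CPM in WT cells, and P2rx7 at 3.44 to 10.3 CPM in UTX TCD and 9.19 to 13.4 CPM in WT cells. WT libraries of P2ry1 ran from 10.9 to 42.2 CPM, a wider spread than the difference between the genotypes. The antisense gene Gm37035 on the opposite strand covers 23.1% of the exon bases of P2ry1. P2ry1 was called lower without WT 3 (-1.37), P2ry2 without UTX 1 (-1.45) or with limma-voom (-1.35), and P2rx7 without UTX 2 (-1.29). With the replicate block P2ry1, P2ry2 and P2rx7 were each called lower (-0.90, -1.23 and -0.91). Of 15 genes listed for extracellular purine handling 2 were tested: the nucleoside transporter gene Slc28a2 was higher at 1.34 ± 0.13 (edgeR adjusted p = 7.6e-04), and Nt5e, the CD73 enzyme that makes adenosine, was lower at -0.48 ± 0.18 (edgeR adjusted p = 0.047) with overlapping libraries. The call of Nt5e was lost with RLE (-0.44) or upper-quartile (-0.41) scaling, with DESeq2 (-0.44) or limma-voom (-0.47), and without UTX 1 (-0.41), UTX 2 (-0.41), WT 2 (-0.35) or WT 3 (-0.49).

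Of 13 genes with a Gpr symbol 11 were tested, of which 4 were higher and 6 lower in UTX TCD cells. The shares were 36.4% and 54.5%, against 41.1% and 27% of the table. Gpr34, a lysophosphatidylserine receptor, had 3.74, 4.02 and 5.0 CPM in UTX TCD cells, against 12.1, 15.9 and 16.6 CPM in WT cells. Every UTX TCD library was lower, at -1.80 ± 0.25 (edgeR adjusted p = 0.0023). Gpr55, a receptor for lysophosphatidylinositol, had 7.83, 5.18 and 4.58 CPM in UTX TCD cells, against 11.8, 19.4 and 17.8 CPM in WT cells, also with every UTX TCD library lower, at -1.48 ± 0.30 (edgeR adjusted p = 0.0076). Gpr34 and P2ry10, which share a ligand, thus moved in opposite directions.

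Gpr171, a receptor expressed in T cells, had 166, 186 and 169 CPM in UTX TCD cells, against 239, 231 and 231 CPM in WT cells. The difference was small and even, at -0.43 ± 0.08 (edgeR adjusted p = 0.0058). Gpr89, the gene of a Golgi channel protein, had 114, 88.3 and 109.6 CPM in UTX TCD cells, against 148, 144 and 134 CPM in WT cells, at -0.46 ± 0.11 (edgeR adjusted p = 0.014), and Pdzk1 on the opposite strand covers 24.8% of its exon bases. Gpr176, an orphan receptor, was lower from few reads, 9, 3 and 16 reads in UTX TCD cells, against 38, 77 and 52 reads in WT cells, at -2.54 ± 0.55 (edgeR adjusted p = 0.009). The calls of Gpr34, Gpr55, Gpr171 and Gpr176 held without any 1 library, and that of Gpr89 was lost without WT 1 (-0.43) or WT 2 (-0.45).

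Gpr146, the gene of an orphan receptor, showed the largest called rise of the Gpr genes that passed the low-count filter. It had 62.3, 127 and 81.5 CPM in UTX TCD replicates 1, 2 and 3, against 34.2, 25.8 and 39.4 CPM in WT replicates 1, 2 and 3. Replicate 2 was highest among UTX TCD libraries, all of which were above WT, at 1.45 ± 0.27 (edgeR adjusted p = 0.0058), and the call held without any 1 library. Gpr183, the oxysterol receptor that places lymphocytes at follicle borders, had 209.9, 225 and 159 CPM in UTX TCD cells, against 156, 143 and 138 CPM in WT cells. UTX TCD replicate 3 barely exceeded WT replicate 1, at 0.45 ± 0.14 (edgeR adjusted p = 0.024). Gpr18 had 117, 151 and 108 CPM in UTX TCD cells, against 95.8, 87.3 and 103 CPM in WT cells, at 0.39 ± 0.14 (edgeR adjusted p = 0.04), and Gpr162 had 6.87, 13.7 and 6.77 CPM in UTX TCD cells, against 5.15, 3.90 and 5.22 CPM in WT cells, at 0.94 ± 0.35 (edgeR adjusted p = 0.043). Both were highest in UTX TCD replicate 2, without which neither was called (0.23 and 0.51). Gpr18, Gpr162 and Gpr183 were also not called without WT 1 (0.39, 1.0 and 0.49), WT 2 (0.33, 0.81 and 0.43) or WT 3 (0.45, 1.0 and 0.40), nor was Gpr183 without UTX 1 (0.41). Gpr18 was not called with gap-centred scaling (0.32), nor Gpr162 with limma-voom (0.87). Neither was called with the replicate block (0.38 and 0.87).

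The pseudogene Gpr137b-ps was at 1.07 ± 0.63 (edgeR adjusted p = 0.14) and did not pass, with 1.21 to 6.98 CPM in UTX TCD and 1.39 to 3.52 CPM in WT cells. Reads of its parent gene may be counted in it, and it was called higher without UTX 1 (1.52). Gpr45 and Gpr62 were under the low-count filter. Gpr45 had 10, 19 and 7 reads in UTX TCD cells, against 1, 0 and 7 reads in WT cells, and Gpr62 6, 10 and 25 reads in UTX TCD cells, against 1, 2 and 7 reads in WT cells. The genotypes overlapped in CPM for both. With no low-count filter neither passed, at 2.14 ± 0.94 for Gpr45 (edgeR adjusted p = 0.069) and 1.99 ± 0.82 for Gpr62 (edgeR adjusted p = 0.057). Gpr45 was called higher without WT 3 (4.35), and Gpr62 without UTX 1 (2.31) or WT 3 (3.13).

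Of 5 semaphorins 2 were lower and 1 was higher in UTX TCD cells (40% and 20%, against 27% and 41.1% of the table). The 2 plexins moved in opposite directions. Sema4d, the CD100 semaphorin of resting T cells, was by length the most abundant of the semaphorins and plexins in both genotypes, at 77.4 CPM per kilobase of exon in UTX TCD and 60.0 in WT cells. It had 573, 633 and 578 CPM in UTX TCD replicates 1, 2 and 3, against 446, 454 and 482 CPM in WT replicates 1, 2 and 3. The rise was small and even, at 0.37 ± 0.08 (edgeR adjusted p = 0.0095). Plxnb1, the gene of its high-affinity plexin receptor, had 23.5, 25.8 and 27.7 CPM in UTX TCD cells, against 7.33, 10.6 and 10.4 CPM in WT cells. Every UTX TCD library was at least 2-fold above every WT library, at 1.44 ± 0.21 (edgeR adjusted p = 0.0027), on chromosome 9, 109095389 to 109119917 (GRCm38). Plxnd1, a receptor for Sema3e and Sema4a, had 121, 88.0 and 102 CPM in UTX TCD cells, against 171, 178 and 159 CPM in WT cells, with every UTX TCD library lower, at -0.71 ± 0.12 (edgeR adjusted p = 0.0048).

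Sema7a, a membrane-anchored semaphorin that binds integrins, had 39.3, 17.8 and 41.1 CPM in UTX TCD cells, against 74.5, 62.8 and 90.5 CPM in WT cells. Every UTX TCD library was lower, replicate 2 most, at -1.21 ± 0.30 (edgeR adjusted p = 0.014). Sema4c had 15.5, 20.3 and 6.77 CPM in UTX TCD cells, against 41.8, 33.7 and 29.7 CPM in WT cells, with UTX TCD replicate 3 lowest, at -1.31 ± 0.36 (edgeR adjusted p = 0.019). Sema4a and Sema4b did not pass, at 0.24 ± 0.23 (edgeR adjusted p = 0.33) and -0.33 ± 0.21 (edgeR adjusted p = 0.17), and their libraries overlapped. Sema4a lay at 21.8 to 29.9 CPM in UTX TCD and 17.5 to 27.8 CPM in WT cells. WT replicate 1 was highest for Sema4b, at 109 CPM against 66.9 and 66.1 CPM in the other WT libraries. The calls of Plxnb1, Plxnd1 and Sema7a held without any 1 library. Those of Sema4c and Sema4d were lost without WT 1 (-1.16 and 0.34) or WT 2 (-1.34 and 0.35).

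Of 10 tested genes of semaphorin and other guidance partners, 6 were higher and 2 lower (median log2 fold change 0.68, 41 genes in the list). The shares were 60% and 20%, against 41.1% and 27% of the table. Ephb6, an ephrin receptor without kinase activity, had 72.5, 73.1 and 84.0 CPM in UTX TCD cells, against 33.5, 35.6 and 33.9 CPM in WT cells, at 1.16 ± 0.11 (edgeR adjusted p = 7.6e-04). Ntn1, which encodes the guidance cue netrin, was higher at 2.17 ± 0.27 (edgeR adjusted p = 0.0017), with 18.0, 23.0 and 23.3 CPM in UTX TCD cells, against 4.75, 3.36 and 6.13 CPM in WT cells. The semaphorin co-receptor gene Nrp1 was lower at -1.47 ± 0.15 (edgeR adjusted p = 7.8e-04), with 49.4 ± 8.05 CPM in UTX TCD and 137 ± 17.7 CPM in WT cells (SD, n = 3 each). The counts were 2 higher and 1 lower without WT 1, 3 and 1 without WT 2, 3 higher without WT 3 and 1 lower without UTX 1 or with RLE or upper-quartile scaling.

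**Figure D4:**
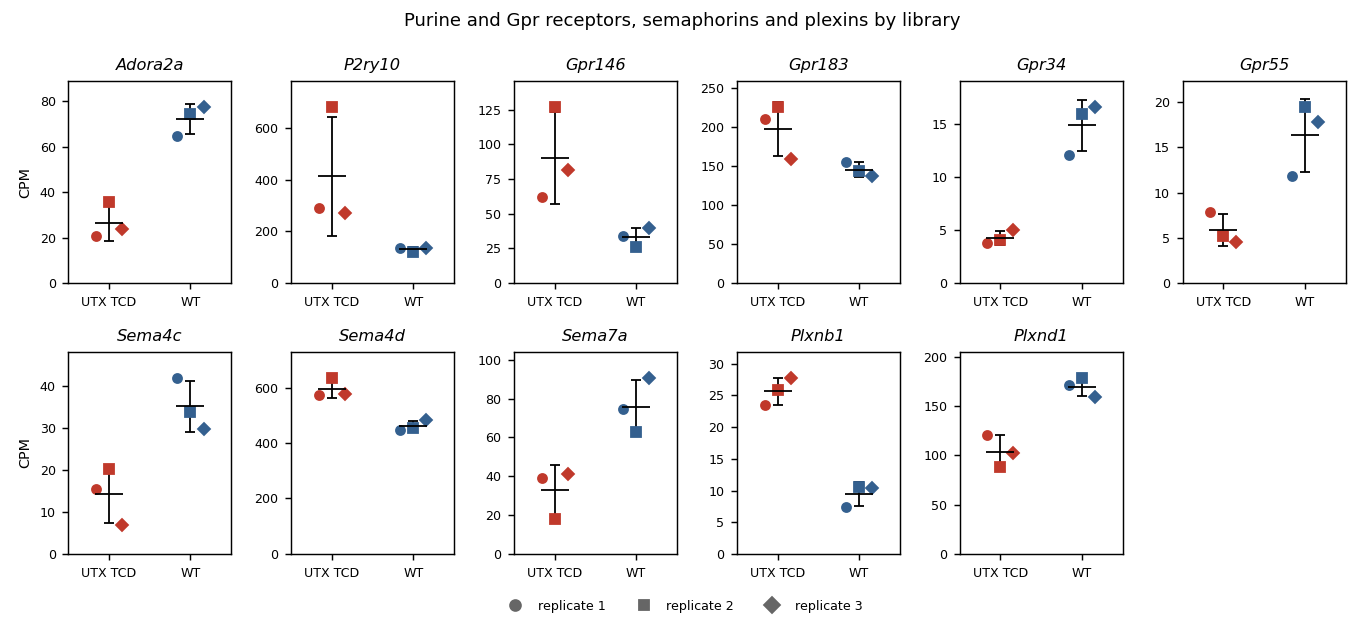
CPM (linear axes from 0) of purine and Gpr receptors, semaphorins and plexins in each library, with UTX TCD in red on the left and WT in blue on the right, symbols for the replicates and bars for the mean ± SD of 3 libraries. Adora2a, Gpr34, Gpr55, Sema4c, Sema7a and Plxnd1 lie lower and P2ry10, Gpr146, Gpr183, Sema4d and Plxnb1 higher in every UTX TCD library.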

How the data were processed

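RNA was sequenced from activated CD4+ T cells of 6 mice, 3 UTX TCD and 3 WT. The authors deposited raw counts of reads per gene, made with FastQC, HISAT2 and HTSeq on the build mm10, per the submitters' processing notes. The sources used here give neither versions, annotation nor strand setting, and neither the handling of shared reads nor the rule by which 4162 genes were listed. Columns were tied to samples by the genotype and number in the titles. No other column of values was present.

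A quasi-likelihood model of genotype alone was fitted to the whole table in edgeR 4.0.16 (under R 4.3.3), after TMM scaling and filterByExpr (minimum count 10, minimum total 15), which left out 44 genes. P-values were adjusted over the 4118 genes tested. Because the table was selected on the genotype difference, this counts too few tests. CPM use TMM library sizes over the listed genes. Standard errors are the absolute log2 fold change over the square root of the F statistic. Gene positions, exon lengths and overlaps come from GENCODE M21 (GRCm38, the sequence of mm10), and 37 of 51 members have a RefSeq start-site window. On simulated data with the real means and spread over 4116 genes, the test called 80.8% of 99 genes changed 2-fold. It called all of 100 genes changed 4-fold, with 8 false calls. Far fewer genes were changed there than the 68.1% called in the real data, so these rates may not carry over. Alternatives used RLE, upper-quartile and gap-centred scaling, DESeq2 1.42.0, limma-voom 3.58.1, no filter, a replicate block, another number of tests and each library left out. Replicates differed by more than sampling noise, with a chi-square per degree of freedom of at least 7.09.

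Members and lists were chosen with earlier results of these data known. Every member is named except 2 that, with 1 gene of a pathway list, are not reported here. Values per library are given for Cxcr4, Cxcr5, Itgal and called members with separate groups and an average log2 CPM of at least 2, and for others chosen after their values were seen. Of each pathway list the called members with the smallest p, at most 3, are named.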

Additional observations from a re-analysis of the deposited data

How the results depend on the processing

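None of the 47 members tested changed direction under any of the 14 alternatives run, and 16 of the 37 called members kept their call under every one. Among the members, 13 to 17 were higher and 20 to 24 lower under RLE, upper-quartile or gap-centred scaling, DESeq2, limma-voom, no low-count filter or the replicate block. With all 21951 annotated protein-coding genes counted as tests, 5 members were higher and 11 lower, and 630 and 296 of all genes, since the adjustment is then over more tests. With any 1 library left out and the filter set anew, members called higher numbered 6 to 17 and lower 15 to 23, and over all genes 730 to 1824 were higher and 351 to 1458 lower. Of all genes 1111 were lower under TMM, 725 under upper-quartile and 1832 under gap-centred scaling, which puts the emptiest point of the fold changes at 0. Higher genes made up 60.4% of all calls under TMM, 70.6% under upper-quartile and 45.8% under gap-centred scaling. With the replicate block, 13 members were higher and 23 lower, and 1607 and 1026 of all genes. The labels do not say that equal numbers pair mice, and same-numbered libraries deviated from their group means with correlations of 0.29, -0.28 and 0.19, so they were not treated as pairs. Depth limits Cxcr3, Gpr176, P2ry14 and Ptger3, which had at most 26 reads in each library of the genotype with the lower level.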
